A study of Mus musculus with 3 samples.

Results

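Binding of Argonaute 2 (Ago2) was read on 9 genes that set the balance between survival and death of a cell, in N2A cells, a mouse neuroblastoma line. The genes are Pdcd4, Bcl2, Bcl2l1, Bcl2l2, Bcl2l11, Mcl1, Apaf1, Trp53 and Xiap, taken by name from GENCODE M21 out of the 21022 genes that code for a protein and have a 3′UTR there. Ago2 was mapped by HITS-clip with the Wako antibody clone 2D4 in 3 libraries of N2A cells under basal conditions, which formed 1 group with no treated or control arm. Cells were irradiated with ultraviolet light at 400 mJ/cm2 and then in 2 exposures at 200 mJ/cm2, which links a protein to the RNA it touches, and the RNA held by precipitated Ago2 was sequenced. N2A is a single tumour-derived line and the labels name no allele, transgene or drug. The design therefore allows a comparison of genes, strands and libraries, and no test between conditions.

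Ago2 carries a microRNA (miRNA), whose bases 2 to 8, the seed, pair with a transcript, mostly in the 3′UTR. The release of cytochrome c from mitochondria, which starts the intrinsic path to apoptosis, is held back by BCL2, BCL-XL (Bcl2l1), BCL-W (Bcl2l2) and MCL1. It is promoted by BIM, the product of Bcl2l11. Apaf1 builds the apoptosome that activates caspases, XIAP inhibits caspases, and p53 (Trp53) induces genes of cell death. PDCD4, a tumour suppressor that blocks the helicase eIF4A and so the start of translation, is a well-known target of miR-21.

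The sequences that the results turn on are given first. The mature miRNAs, from RefSeq (GRCm38.p6), are those with a match in a region covered in all libraries (miR-15a-5p, miR-200b-3p), miR-21a-5p, and miR-30a-5p, whose 3 matches were each under peaks of 2 libraries. Capitals mark the seed.
miR-21a-5p: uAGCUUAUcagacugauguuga
miR-15a-5p: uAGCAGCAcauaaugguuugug
miR-200b-3p: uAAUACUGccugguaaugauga
miR-30a-5p: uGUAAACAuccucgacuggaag

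Next come 30 bases of the 3′UTR around all matches of miR-21a-5p and miR-30a-5p and around the matches of the other two that were covered in every library, read on the strand of the gene from GRCm38, with the match in capitals. They show that each is a perfect complement of bases 2 to 8, and which carry the A after the match that makes an 8mer.
Pdcd4, miR-21a-5p, chr19:53929432-53929438, plus strand: ccgaagtgtgggtgttctgATAAGCTactt
Xiap, miR-21a-5p, chrX:42105298-42105304, plus strand: catgtttcatgccttttgcATAAGCTtaac
Bcl2l11, miR-21a-5p, chr2:128160155-128160161, plus strand: atgtatatgtatattacctATAAGCTtcct
Pdcd4, miR-15/16, chr19:53929599-53929605, plus strand: tactaaaccccatgttggcTGCTGCTgtgg
Xiap, miR-200b, chrX:42106200-42106206, plus strand: taaaagatctttgttaaccCAGTATTgtaa
Bcl2l11, miR-30, chr2:128158621-128158627, plus strand: gagaaatatgcaagagaggTGTTTACatgt
Mcl1, miR-30, chr3:95662722-95662728, plus strand: aacccagccatggaagtttTGTTTACtagg
Apaf1, miR-30, chr10:90991321-90991327, minus strand: attgcaaacattacaaaagTGTTTACagct

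The table of peaks held 711377 peaks in replicate 1, 498071 in replicate 2 and 829936 in replicate 3. It lists intervals without read counts, so the depth is unknown and a missing peak is no proof that Ago2 was absent. Nearly all scores were 60, and they ordered nothing. Each gene was represented by the longest 3′UTR of its protein-coding transcripts. Of 9 genes typical of neurons or neuroblastoma, 5 had a 3′UTR peak in every library, among them Hand2 and Mycn, and 1, Nefl, had none. Of 8 genes typical of other cell types 2 did, Ptprc and Mbp, and 2, Cd3e and Csf1r, had none. RNA came from bulk lysates, so fewer cells with a transcript and less of it per cell cannot be told apart from weaker binding.

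Ago2 peaks were found on the 3′UTR of all 9 genes, and of 7 of them in every library. Bcl2l1 and Trp53 were the exceptions, with no 3′UTR peak in replicate 1 and peaks in the other two. Of all 21022 genes 23.9% had a same-strand 3′UTR peak in every library. The 9 genes have long 3′UTRs, with a median of 2353 nt against 961 nt over all genes. Among 12892 genes with a 3′UTR between 565 and 5086 nt, the range of the 9, the share was 32%. Peaks of the opposite strand met the same rule in 0 of the 9 genes, against 2.63% of all genes. No test is attached to these counts, since genes chosen by name are no sample.

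The mean share of the 3′UTR under peaks was highest in Pdcd4, Xiap and Mcl1 and lowest in Bcl2 and Bcl2l1. Over the 9 genes the median covered share was 8.49%, 27.1% and 39.2% in replicates 1, 2 and 3. Over all genes the median was 0 in each library, and over the 12892 genes of that range of length it was 0, 4.12% and 5.55%. In every one of the 9 genes replicate 1 had the lowest share.

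**Figure D1:**
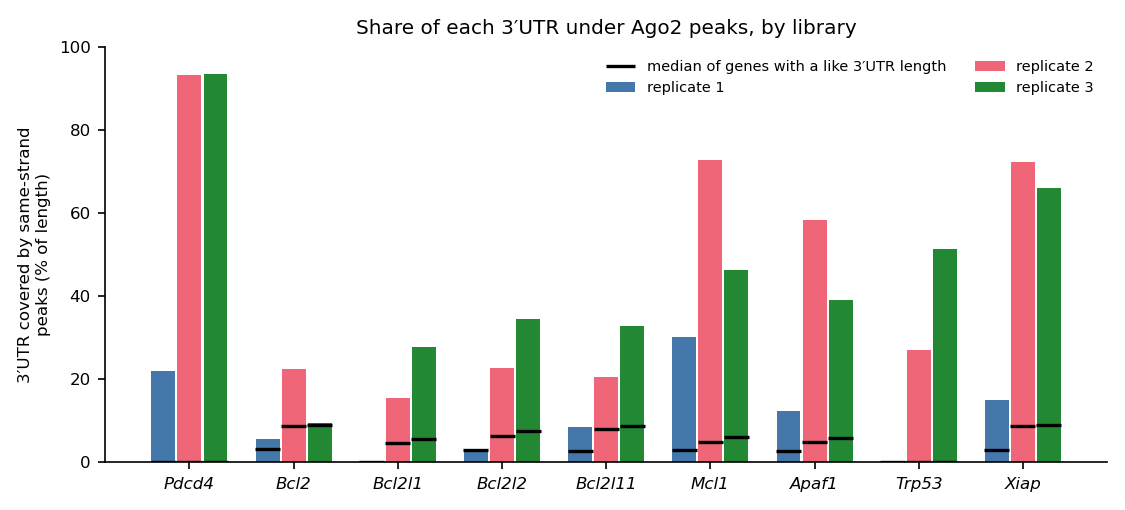
Percent of the 3′UTR length covered by same-strand Ago2 peaks (vertical axis) for the 9 genes, 1 bar per library, with a black line at the median of genes whose 3′UTR length was within 1.5-fold. Pdcd4 reached 93.3% and 93.4% in replicates 2 and 3, and replicate 1 was lowest for each gene.

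Pdcd4 (chr19:53892231-53929860, plus strand) has a 3′UTR of 717 nt, in the last exon at chr19:53929144-53929860. Peaks covered 22% of it in replicate 1, 93.3% in replicate 2 and 93.4% in replicate 3. Replicates 2 and 3 thus left little of it free, and only 32 nt were covered in no library. These shares, with peaks as deposited, were above those of 92.9%, 97.8% and 98.1% of the 4759 genes with a 3′UTR within 1.5-fold of its length, whose median was 0 in all libraries. The mean share was 69.6 ± 41.2% (SD, n = 3). No nucleotide was covered on the other strand. Peaks appear to carry 30 nt of padding on each side, and with this taken off the shares were 8.79%, 65.3% and 62.1% and 164 nt were free.

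The genes whose 3 shares came nearest to those of Pdcd4, by Euclidean distance among 4758 genes of like length, were Erg28, Nfkb1 and Cd81. Erg28 lay 1.99 percentage points away, with 22.1%, 91.4% and 94.1%. Nfkb1 lay 4.13 points away and Cd81 7.31 points away. Nearness here is over 3 libraries and says only that the covered shares were alike.

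Xiap has a 3′UTR of 4672 nt (chrX:42104985-42109656, plus strand), of which 15%, 72.3% and 66% lay under peaks. These were 9, 35 and 37 peaks, the largest numbers among the 9 genes in replicates 2 and 3. The shares exceeded those of 86.7%, 95.4% and 93.8% of 2324 genes of like length. The other strand was free of peaks in replicates 1 and 2 and had 82 nt covered in replicate 3.

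Among the genes that protect mitochondria, Mcl1 had the highest share in each library. Its 3′UTR of 2353 nt (chr3:95660824-95663176, plus strand) was covered to 30.2%, 72.8% and 46.3%, by 9, 22 and 16 peaks. Bcl2 has the longest 3′UTR, 5086 nt (chr1:106538178-106543263, minus strand), and 5.74%, 22.4% and 9.46% of it was covered. The Bcl2 shares lay near the middle of 1970 genes of like length, above 63.3%, 64.4% and 50.9% of them. The lowest library of Mcl1 was thus above the highest of Bcl2.

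Bcl2l1 has a 3′UTR of 1477 nt (chr2:152780668-152782144, minus strand) with a covered share of 0, 15.4% and 27.9%. For Bcl2l2, with 3177 nt (chr14:54884919-54888095, plus strand), it was 2.9%, 22.7% and 34.5%. In both genes replicate 3 was the highest library, and their ranges overlapped. The gene Gm20521 overlaps Bcl2l2 on the same strand, and peaks there cannot be assigned to either of them.

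Bcl2l11, the only promoter of cell death of the BCL2 family among the 9, has a 3′UTR of 4218 nt (chr2:128158330-128162547, plus strand). Peaks covered 8.49%, 20.5% and 32.9% of it. The share in replicate 3 included a single peak of 873 nt that began upstream of the stop codon. Apart from that peak its 3′UTR peaks were scattered, and their positions are seen in the map of the 9 3′UTRs.

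Apaf1 has a 3′UTR of 2139 nt (chr10:90989311-90991449, minus strand), and 12.3%, 58.3% and 39.2% of it was covered. That exceeded 84.4%, 90.8% and 82.2% of 5370 genes of like length. Trp53 has the shortest 3′UTR, 565 nt (chr11:69591309-69591873, plus strand), with 0, 27.1% and 51.3% covered. The latter came from 1 peak in replicate 2 and 4 in replicate 3.

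Ordered by mean share, Pdcd4 came first and was followed by Xiap with 51.1 ± 31.4%, Mcl1 with 49.8 ± 21.5% and Apaf1 with 36.6 ± 23.1% (SD, n = 3). Trp53 had 26.1 ± 25.7%, Bcl2l11 20.6 ± 12.2%, Bcl2l2 20 ± 16%, Bcl2l1 14.4 ± 14% and Bcl2 12.5 ± 8.73%. The libraries differed so much that each gene's mean lay within 1 SD of that of its neighbour in this order. Pdcd4 was first in replicates 2 and 3 and Mcl1 in replicate 1. With the padding taken off, the means of Pdcd4, Mcl1 and Xiap were 45.4 ± 31.7%, 31.2 ± 17.8% and 29 ± 20.6%, that of Apaf1 was 14.7 ± 11.1%, and the others ran from 12 ± 10.7% in Bcl2l11 to 4.82 ± 3.14% in Bcl2.

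Next, places covered in every library were sought. A recurrent region was defined as a stretch of at least 8 nt under same-strand peaks of all 3 libraries. There were 14 of them in 5 of the 9 genes: 8 in Xiap, 2 in Pdcd4, 2 in Mcl1 and 1 each in Bcl2l11 and Apaf1. Of all genes 14.3% had such a region, and of those with a 3′UTR of 565 to 5086 nt 19%. The 14 regions had a median length of 80 nt, against 69 nt over the 7839 regions of all genes. They took up 4.16% of the summed 3′UTR length, against 1.76%, and Xiap alone held 594 of their 1015 nt. None of the 14 had a peak of any library on the opposite strand. In 10 of the 14 the 3 peaks still overlapped when 30 nt were taken off each end of every peak. The number depended on replicate 1, without which the other two libraries shared 50 regions, and on the width of peaks, since those of 86 to 200 nt, without narrower and wider ones, gave 4.

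**Figure D2:**
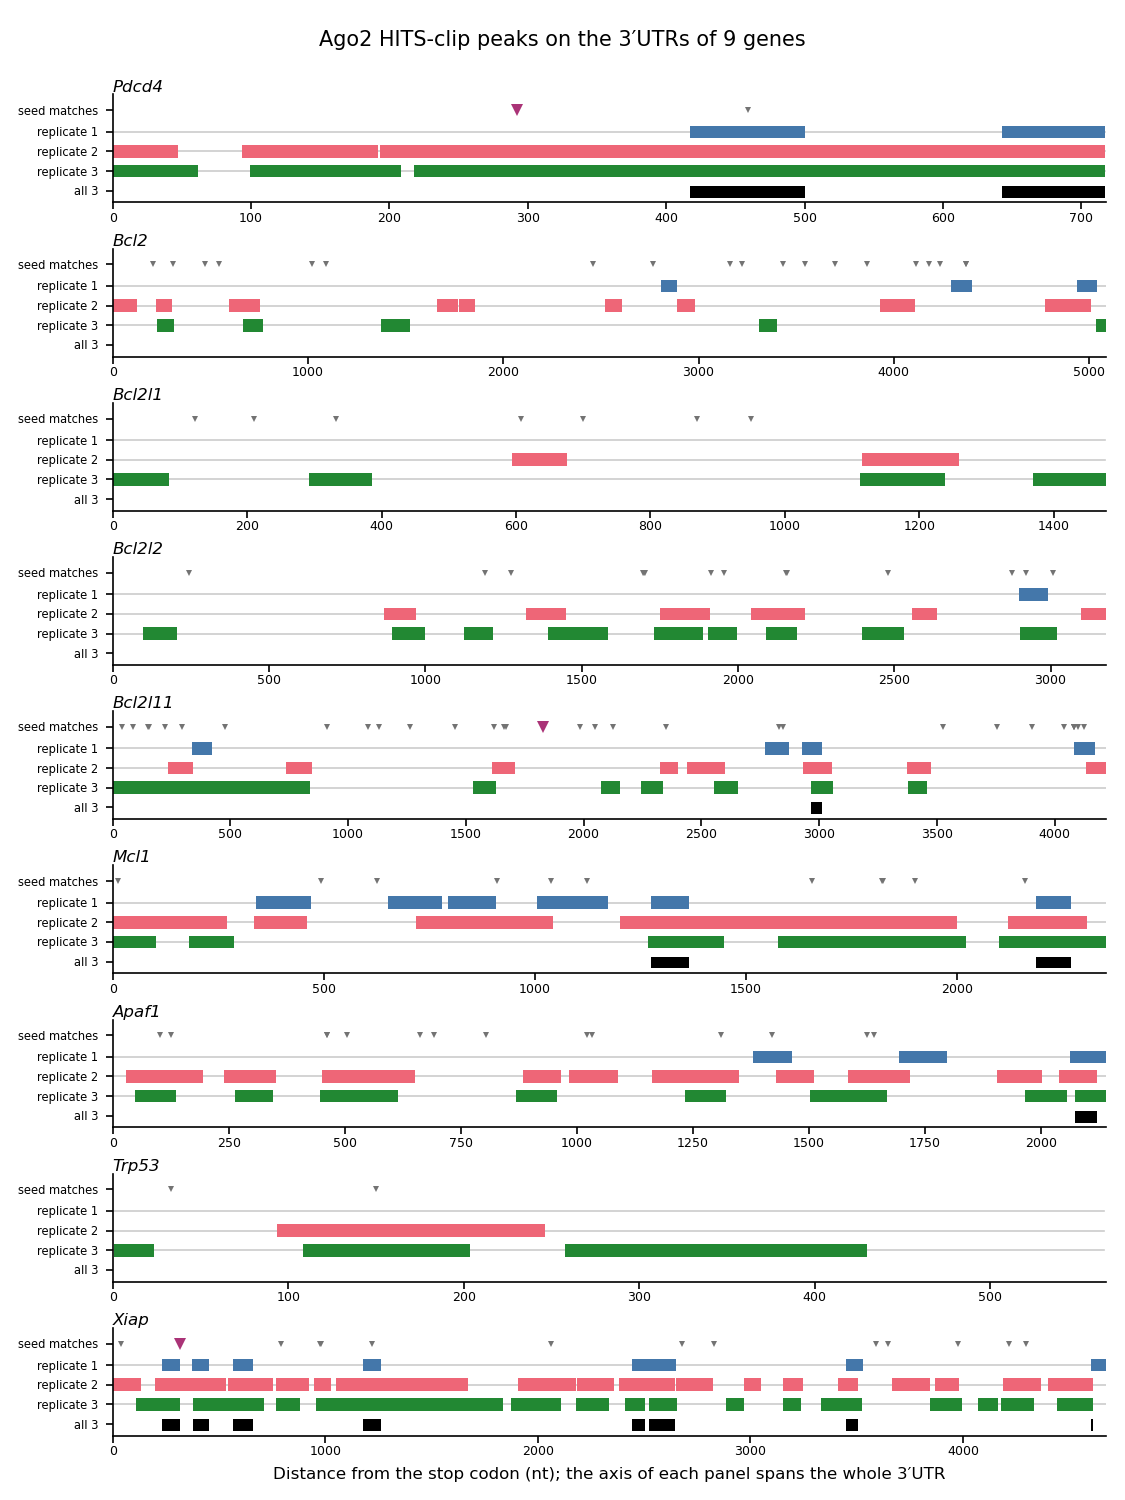
Same-strand Ago2 peaks along each 3′UTR, with distance from the stop codon in nt on the horizontal axis. Coloured bars are the stretches covered in replicates 1, 2 and 3, black bars the 14 recurrent regions, grey triangles the 114 seed matches of listed miRNA families and large purple triangles the 3 matches to miR-21a-5p. All of the 158 nt covered by replicate 1 in Pdcd4, and 594 of 703 nt in Xiap, were also under peaks of the other two libraries.

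In Pdcd4 the first recurrent region was 83 nt long (chr19:53929561-53929643, nt 418 to 500 after the stop codon) and was the whole of a replicate 1 peak. The second, of 75 nt (chr19:53929786-53929860), reached the end of the annotated 3′UTR. It held 1 copy of AATAAA, the polyadenylation signal, sought on the strand of the gene, as did 14.3% of 2551 recurrent regions of all genes of like length. In each library a peak over it ran past the annotated end, at the farthest to chr19:53929889. Each overrun was shorter than the padding taken for a side, so no trimmed peak over the region passed that end. These peaks therefore do not show Ago2 beyond the annotated 3′UTR.

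The 8 regions of Xiap were spread along its 3′UTR, from nt 232 to nt 4609 after the stop codon. The longest, 126 nt (chrX:42107505-42107630), lay close behind one of 62 nt (chrX:42107428-42107489), near the middle. The shortest, 9 nt, was the overlap of a 1788 nt peak of replicate 1 with peaks of the other libraries at the 3′ end. It was not recovered after the peaks were trimmed.

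Mcl1 had regions of 90 nt (chr3:95662099-95662188) and 83 nt (chr3:95663012-95663094), the second 82 nt before the end of the 3′UTR. The single region of Bcl2l11 had 43 nt (chr2:128161297-128161339). That of Apaf1 had 47 nt (chr10:90989331-90989377), lay 20 nt before the end, was 83% A or T and held 1 copy of AATAAA, found in 8.03% of 1195 regions of like length. In the last pair of genes the trimmed peaks had no nucleotide in common.

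Bcl2, Bcl2l1, Bcl2l2 and Trp53 had no recurrent region. Stretches covered in at least 2 libraries were found in all 9 genes. They made up 91.2% of the 3′UTR of Pdcd4, 56.2% of Mcl1, 53.5% of Xiap and 36.4% of Apaf1. For Trp53 they made up 16.8%, for Bcl2l11 14.6%, for Bcl2l2 14.4%, for Bcl2l1 8.4% and for Bcl2 4.8%. Without the padding these stretches made up 50.2% of Pdcd4, 26% of Mcl1, 25.3% of Xiap, 7.76% of Apaf1 and from 1.02% to 6.19% of the others. Over the 9 genes together the untrimmed share was 27.8%, against 10.3% over all genes and 10.6% over those with a 3′UTR of 565 to 5086 nt.

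Base composition moved with coverage in most of the genes. In Bcl2, stretches covered in at least 2 libraries were 66.8% A or T and those covered in none 54.4%. The values were 53.2% and 41.2% in Bcl2l1, 63% and 50.7% in Bcl2l11, and 66.3% and 57.9% in Xiap. The opposite was found in Trp53, with 42.1% in the covered and 59.9% in the free stretches, and in Pdcd4, where only 32 nt were free. The part of base composition in the coverage was not tested.

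Seed matches were then set against the peaks. Matches to bases 2 to 8 were sought for 43 miRNA families, and 114 were found in the 9 3′UTRs for 39 families, 29 of them 8mers. Peaks of at least 2 libraries covered 31 of them, or 27.2%, which is close to the 27.8% of the length so covered. In all 3′UTRs 11.4% of 129436 matches were so covered, where 10.3% of the length was. Matches in the 9 genes thus lay under peaks of at least 2 libraries about as often as the length so covered would give. Only 2 of the 114 lay in a recurrent region, where such regions took up 4.16% of the length. Over all 3′UTRs 2.02% of matches lay in one, where 1.76% of the length did. When replicate 1 was left out it was 29 of the 114.

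The seed of miR-21a-5p had a match in 3 of the 9 genes, Pdcd4, Bcl2l11 and Xiap, and in 7.19% of all genes. These shares are not alike in length, since the median 3′UTR was 2353 nt against 961 nt over all genes. A longer 3′UTR has more places for a match, and the share at like length was not computed. In all 3′UTRs 13.6% of 1675 such matches were under peaks of at least 2 libraries, and of the 3 matches here 1 was. It is the one in Pdcd4, an 8mer 289 nt after the stop codon, shown in the first line of the second set of sequences. It was covered in replicates 2 and 3 and not in replicate 1.

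The Pdcd4 match lay 29.5 nt downstream of the middle of a 138 nt peak in replicate 2 (chr19:53929337-53929474). In replicate 3 it lay where 2 overlapping peaks met, 34 nt downstream of the middle of one of 81 nt (chr19:53929361-53929441) and 35 nt upstream of the middle of one of 85 nt (chr19:53929428-53929512). It remained inside the peak of replicate 2 when 30 nt were taken off each side, and in neither of those of replicate 3. As 91.2% of this 3′UTR was covered in at least 2 libraries, or 50.2% without the padding, most positions in it would have met the same criterion with peaks as deposited. The peaks show Ago2 on the RNA around the match and do not show which miRNA it carried.

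The Xiap match, 314 nt after the stop codon and with no A behind it, was under a peak in replicate 2 alone. It straddled the end of the first recurrent region of Xiap (chrX:42105216-42105299), of which it shared 2 nt. The Bcl2l11 match, 1826 nt after the stop codon, was under no peak in any library. The 3 genes thus had the same 7 letters covered in 2, 1 and 0 libraries.

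The match of Pdcd4 that was covered in every library belonged to miR-15/16, not to miR-21a-5p. It began 456 nt after the stop codon, in the middle of the 83 nt region. It lay at the exact centre of the replicate 1 peak. It was 21.5 nt downstream of the centre in replicate 2 and 6.5 nt upstream in replicate 3, and within the trimmed peak in each. Another replicate 3 peak, of 94 nt, also covered the match, farther from its centre, and no longer did once trimmed. Of 2856 recurrent regions of like length in all genes 2.07% held this match, TGCTGCT. The same seed had 4 matches in Bcl2l2, covered in at most 1 library, and 1 each in Bcl2 and Xiap, covered in none.

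The other match covered in every library was that of miR-200b in Xiap, 1216 nt after the stop codon, in an 85 nt region (chrX:42106162-42106246). It lay 1 nt from the centre of the replicate 1 peak. In replicate 3 it was 27 nt upstream of the centre, and outside the peak once 30 nt were taken off each side. Another replicate 3 peak, of 111 nt, also covered the match, farther from its centre, and no longer did once trimmed. With peaks of 86 to 200 nt only, neither this nor the miR-15/16 match was in a recurrent region. In replicate 2 the peak was 507 nt wide and says little on position. The match, CAGTATT, was found in 1.48% of 2972 regions of like length. In Apaf1 a match to the same seed, 100 nt after the stop codon, was covered in replicates 2 and 3, and that in Bcl2 in none. Of the 5 genes with a recurrent region, 2 had a listed match in one, against 42.9% of 3010 genes.

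**Figure D3:**
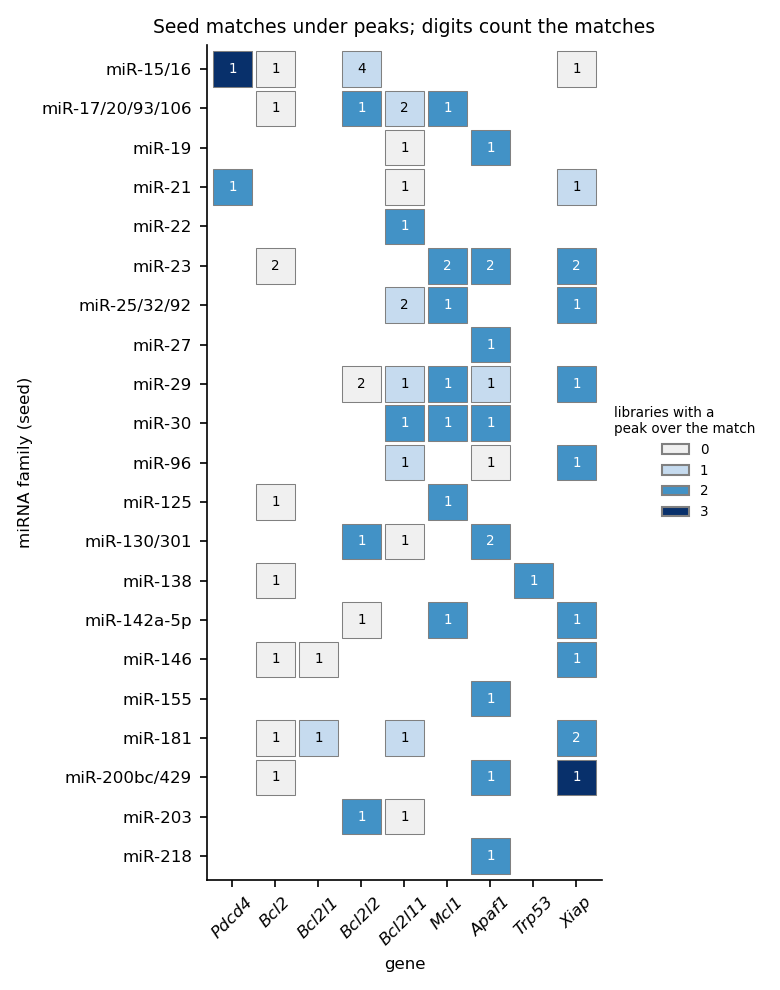
Seed matches by miRNA family (rows) and gene (columns) for the 21 families with at least 1 match covered in at least 2 libraries. Digits give the number of matches in the gene and the colour gives the libraries with a peak over the best covered of them, from 0 to 3. The darkest cells are miR-15/16 in Pdcd4 and the miR-200 family in Xiap, and all 3 cells of miR-30 stand at 2 libraries.

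By gene, the covered matches lay where the coverage was. Of 19 matches in Bcl2 none was covered in at least 2 libraries, and of 7 in Bcl2l1 none. It was 3 of 14 in Bcl2l2 and 2 of 31 in Bcl2l11, the gene with the most matches. In Mcl1 it was 7 of 11, in Apaf1 8 of 14, in Xiap 8 of 14, in Trp53 1 of 2 and in Pdcd4 2 of 2.

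Among 8mers, 9 were covered in at least 2 libraries, and 4 of these were in Mcl1. They belonged to the families of miR-25, 9 nt after the stop codon, miR-29, miR-17 and miR-125. The miR-29 match was covered in replicates 1 and 2, and the others in replicates 2 and 3. The miR-17 match (chr3:95662643-95662649) was the most central of the 4, at 9.5 nt and 0.5 nt upstream of the centres of peaks of 130 and 136 nt. It shares letters with the miR-142a-5p match that starts 2 nt downstream, and one peak cannot be read for either of them alone.

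Apaf1 had 2 of these 8mers, for miR-30 and miR-155, and Bcl2l11 1, for miR-30. Xiap had 1 for miR-23, 977 nt after the stop codon, and Pdcd4 that of miR-21a-5p. The 3 matches to the miR-30 seed in these genes, in Bcl2l11, Mcl1 and Apaf1, were all covered in replicates 2 and 3. Over all 3′UTRs 16.2% of 3505 matches to this seed were covered in at least 2 libraries. In Bcl2l11 the peak over it in replicate 3 was the one of 873 nt. In Mcl1 it lay 10.5 nt upstream and 9.5 nt downstream of the centres. No other family with at least 3 matches had all of them covered in at least 2 libraries, and the family was picked out after its values were seen.

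Trp53 held 2 matches. That of miR-138, 147 nt after the stop codon (chr11:69591455-69591461), was covered in replicates 2 and 3, at 20 nt and 6 nt upstream of the centres. That of miR-7 was covered in none. In Apaf1 a match to miR-27 (chr10:90989822-90989828) lay at the centre of an 83 nt peak in replicate 2 and 1 nt from it in replicate 3. A miR-23 match 15 nt downstream was under the same peaks. Another replicate 2 peak, of 105 nt, also covered the miR-27 match, farther from its centre.

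Outside the 3′UTR, the position of peaks differed between libraries and between genes. By midpoint, 30, 113 and 104 same-strand peaks of the 9 genes lay in 3′UTRs in replicates 1, 2 and 3. Coding sequence held 16, 29 and 33 and introns 114, 73 and 299. The 3′UTR thus took 17.9%, 50% and 22.8% of the same-strand peaks of these genes. The opposite strand of the genes had 43, 43 and 60 peaks in all, of which 41, 39 and 51 were in introns. The same strand had 3.91, 5.26 and 7.62 times as many peaks as the opposite, or 5.59 ± 1.88 times (SD, n = 3). For peaks of 86 to 200 nt the ratios were 13.7, 22.2 and 32.9.

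**Figure D4:**
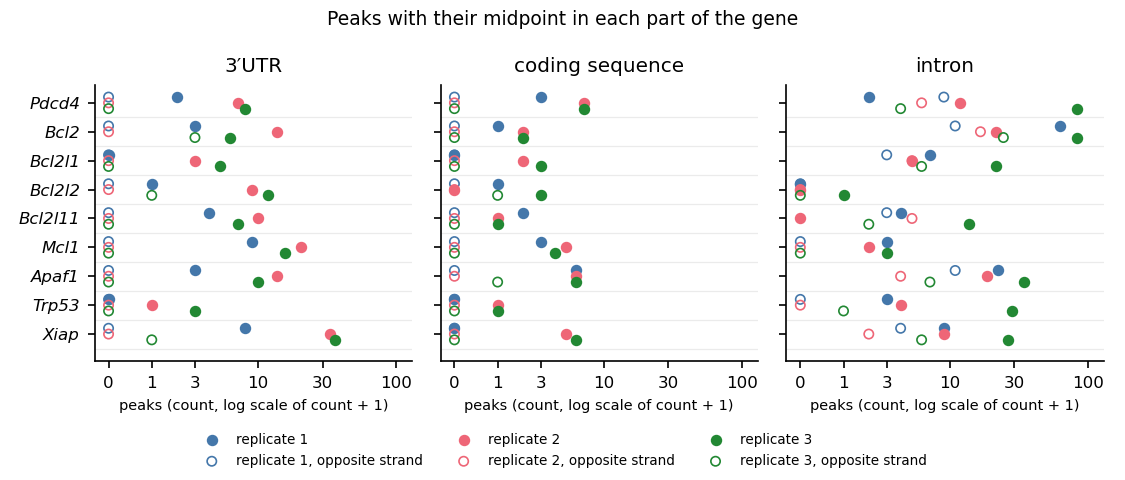
Number of peaks (horizontal axis, log scale of count + 1) with their midpoint in the 3′UTR, coding sequence and introns of each gene. Filled points are same-strand peaks and open points opposite-strand peaks, coloured by replicate. In 3′UTRs and coding sequence the opposite strand stayed at 0 to 3 peaks, and in introns the 84 peaks of Pdcd4 and Bcl2 in replicate 3 were the highest counts.

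Coding sequence also had places under peaks of every library. There were 3 such stretches of 8 nt or more in the coding sequence of Pdcd4, 188 nt in all, and 1 of 208 nt in that of Mcl1. Of all genes 10.1% had such a coding stretch. Apaf1 had 6 coding peaks in each library and no stretch in common. In 410169 nt of intron there was 1 common stretch of 14 nt, in Mcl1, and 3 on the opposite strand. Bcl2 had 1 of 30 nt in its 5′UTR, and Apaf1 1 of 68 nt in a 3′UTR exon of another transcript. In replicate 1 all 1622 nt of such sequence in Apaf1 were covered, with 0 peak midpoints there, so that library gives no position.

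Pdcd4 had 2, 12 and 84 peaks in its introns, which is 0.058, 0.348 and 2.44 per kb of intron. The other strand had 9, 6 and 4. Replicate 3 stood far above the other two, and 62 of its 84 peaks were 86 to 200 nt wide. Of 18939 genes with at least 1000 nt of intron, 26.3%, 89.1% and 97.6% had a lower density in the same library. The mean density over all genes was 0.214, 0.134 and 0.332 per kb, so that replicate 3 was the highest there too. The intron peaks of the 3 libraries shared no stretch of 8 nt in Pdcd4.

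Trp53 also had its highest count in replicate 3, with 3, 4 and 29 intron peaks, or 0.402, 0.535 and 3.88 per kb. Its density was above that of 87.2%, 95.4% and 99.3% of genes, so that it was high in each library, and in replicate 3 22 of the 29 peaks were 86 to 200 nt wide. The other strand of Trp53 introns had 0, 0 and 1. Bcl2 has the longest introns, which Gm37053 and Mir3473f overlap on the same strand and D630008O14Rik on the other. It had 63, 22 and 84 intron peaks, or 0.377, 0.132 and 0.503 per kb. Of the other genes with at least 1000 nt of intron the highest value was 0.667 per kb, in Xiap in replicate 3. Mcl1 and Bcl2l2 have less intron than that. Mcl1 had 3, 2 and 3 peaks in 971 nt, a higher density than that of Pdcd4 in each library. Bcl2l2 had 0, 0 and 1 in 396 nt. The part of the density of the whole library in these counts was not tested.

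**Figure D5:**
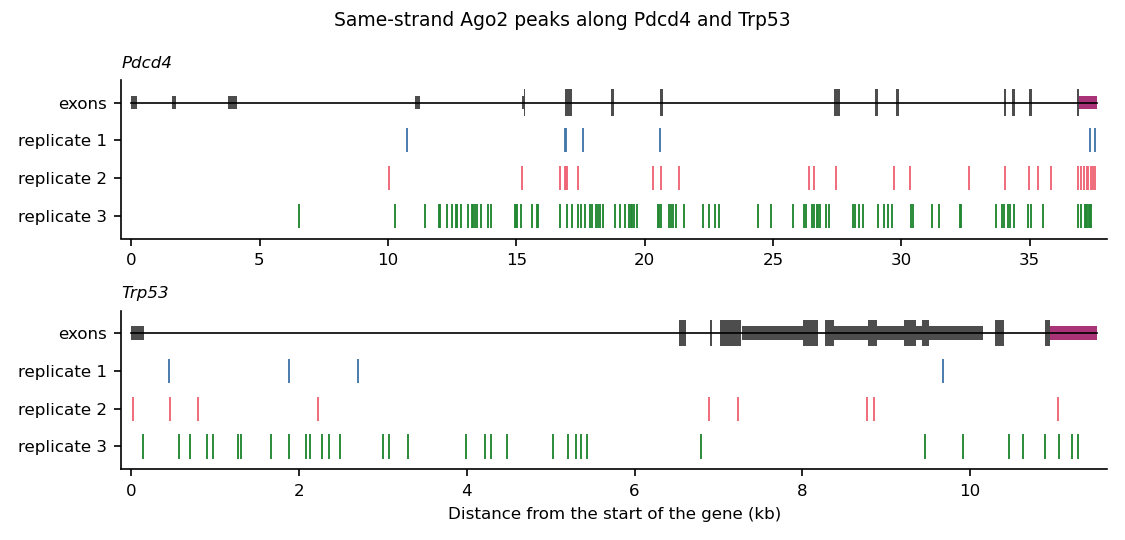
Same-strand Ago2 peaks (vertical lines, 1 row per replicate) along Pdcd4 and Trp53, with distance from the gene start in kb on the horizontal axis. Boxes are exons, tall where coding, and the 3′UTR is purple. Replicate 3 has 84 intron peaks in Pdcd4 and 29 in Trp53, and in Pdcd4 the lines of replicates 2 and 3 crowd at the 3′UTR.

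The 51 other genes listed for apoptosis and for PDCD4 were read in the same way. Of them 24 (47.1%) had a 3′UTR peak in every library. This was so for 23.9% of all genes and 32% of those with a 3′UTR of 565 to 5086 nt. The median 3′UTR of the 51 was 1334 nt. With peaks of 86 to 200 nt only, the count was 14, and the share over all genes was not computed at that width. A recurrent region was found in 14 of the 51, against 14.3% of all genes and 19% of those with a 3′UTR of 565 to 5086 nt. A single gene, Trp53bp1, had an opposite-strand peak in every library. Their median covered share was 2.37%, 7.15% and 18.6% in replicates 1, 2 and 3, below that of the 9 genes in each library.

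The p53 circuit had the highest count, with 7 of 9 genes covered in every library, and also the longest 3′UTRs, with a median of 2738 nt. Mdm4, which restrains p53, had 6 recurrent regions of 400 nt in all and shares of 10.9%, 44.1% and 37.8%. Cdkn1a, the p21 inhibitor of the cell cycle, and Trp53inp1, each induced by p53, had 201 nt each. Trp63 had peaks in 1 library and Trp73 in none.

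Among inhibitors of apoptosis and their antagonists it was 5 of 8. Of these, Xaf1 had a share of 87.3% in replicate 1, with a peak of 5956 nt, against 4.63% and 5.21% in the other libraries. Birc6, a giant member of the same family as Xiap, had 3 regions of 271 nt in all and shares of 40.1%, 76.7% and 81.5%. Of the pro-apoptotic BCL2 family 4 of 10 had a peak in every library. Hrk had a region of 85 nt and Bbc3, the gene of PUMA, one of 84 nt. The share of Hrk in replicate 2, 98.7%, came from a peak of 12874 nt, against 1.68% and 3.33% in the other libraries. Bax, the pore-forming effector, had peaks in replicates 2 and 3 only, and Bad and Bik in none.

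Among apoptosome genes and caspases it was 3 of 7. The initiator Casp9, which is activated on Apaf1, had 136 nt of recurrent region and Casp2 67 nt, while Casp8 had no peak. In the death receptor arm it was 2 of 7, with Cflar, an inhibitor of Casp8, at 206 nt and the TNF receptor Tnfrsf1a at 92 nt, and Fas at none. Of the other anti-apoptotic BCL2 genes 0 of 4 had a peak in any library, and their median 3′UTR was 149 nt. Among them, Bcl2a1a, Bcl2a1b and Bcl2a1d are near-identical copies between which short reads may not be placed. Of the partners and regulators of PDCD4 3 of 6 had a peak in every library and 0 had a recurrent region. Eif4a1, the helicase that PDCD4 binds, had no 3′UTR peak and Eif4a2 had shares of 22.9%, 10.4% and 34.9%.

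A match to the miR-21a-5p seed was present in 4 of the 51 genes, close to the 7.19% of all genes. The 8mers of Hrk and Mdm4 were covered in replicate 2, that of Hrk by the 12874 nt peak. The match of Trp53bp1 was covered in replicate 3 and that of Cycs, the gene of cytochrome c, in none. Of the 7 matches in both lists, that of Pdcd4 was alone in being covered in 2 libraries.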

How the data were processed

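The analysis rests on 1 table of Ago2 HITS-clip peaks of 3 N2A libraries. The authors called peaks per library and deposited chromosome, start, stop, strand and a score without stated unit, between 54.6 and 60, which was not used. Other columns, of positions and names, were used as deposited. The submitters' processing notes name FastQC, cutadapt, STAR and mm10, with no version, and the peak caller is not given in the sources used here. Widths and ends were taken to include 30 nt of padding on each side, and starts were read as counted from 0. Peaks off the primary nuclear chromosomes (430, 276 and 315) were left out. The depth is unknown, so no interval on it is given.

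Gene models were those of GENCODE M21 and sequence GRCm38. An overlap of 1 nt on the strand of the gene counted as a 3′UTR peak, and a midpoint placed a peak in 1 part, in the order 3′UTR, coding sequence, other 3′UTR, 5′UTR, non-coding exon and intron. A match counted as covered when all its letters lay under peaks. Of 48 listed miRNA families 43 had a sequence in the table used, all but miR-122, miR-124, miR-133, miR-145 and miR-320. Regions of like length were those within 20%, and genes of like length those with a 3′UTR within 1.5-fold. Shares over all 9 genes were set beside genes with a 3′UTR of 565 to 5086 nt.

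The 9 genes, the miRNA families and the 51 further genes were chosen with earlier results of these data known, and the marker genes after the peaks had been seen. All 9 genes were named. Of the 51, those with the 2 longest summed recurrent regions of a class were named, with a tie kept. Trp53bp1, Trp63, Trp73, Bax, Bad, Bik, Casp8, Fas, Xaf1, Eif4a1, Eif4a2, Cycs, Bcl2a1a, Bcl2a1b and Bcl2a1d were added after their values were seen. Replicates are not stated to be separate cultures. Values are per library or mean ± SD. Interval and motif functions were tested on simulated data. Python 3.11.15, numpy 2.4.6, pandas 2.3.3, pysam 0.24.0 and matplotlib 3.10.9 were used. Alternatives were strand, peak width, padding, number of libraries, each library left out, merged 3′UTR exons, overlap, region length and site type.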

Additional observations from a re-analysis of the deposited data

Results flagged for a closer look

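Within 2 kb past the annotated ends of the 9 genes, a stretch that no comparison above covers, 18 same-strand peaks were found. They are listed because they lie outside the gene models used, not because they exceed a background. They numbered 8, 3 and 7 in replicates 1, 2 and 3. On the opposite strand of the same stretches there were 14, or 2, 4 and 8, so that the strand of the gene had the higher count in replicate 1 alone. Pdcd4 had 3, 2 and 0 of the same-strand peaks, Bcl2l2 2, 1 and 1 and Xiap 2, 0 and 0. The stretch past Bcl2l2 also holds Gm20521 on the same strand, and that past Pdcd4 holds Bbip1 on the opposite strand.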

How the results depend on the processing

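Of 68 recomputed values 46 stayed within 1.5-fold of the count or within 1 SD of the mean given above, and 22 moved. On the opposite strand the mean number of 3′UTR peaks of the 9 genes fell from 82.3 to 1.67, the genes with a peak in every library to 0, recurrent regions to 0, seed matches in them to 0, covered miR-21a-5p matches from 2 to 0, and the further genes to 1. With peaks of 86 to 200 nt there were 4 recurrent regions, 0 seed matches in them and 14 further genes, and the strand ratio rose to 22.9. With peaks trimmed by 30 nt on each side 8 regions and 1 match were left. With at least 2 libraries required there were 59 regions, 31 matches in them and 1 covered miR-21a-5p match. With 8mers only, 0 matches lay in recurrent regions and 1 miR-21a-5p match was covered, that of Pdcd4, and with 6mers or longer these were 24 and 4. Leaving out each replicate gave 17 to 50 regions and 3 to 29 matches in them, highest without replicate 1, and 1 to 2 covered miR-21a-5p matches, lowest without replicate 2. It gave 67 to 108 3′UTR peaks, 7 to 9 genes, 24 to 30 further genes and strand ratios of 4.58 to 6.44. For the covered shares, trimming was chosen after the data were seen. It lowered all 9 means by less than 1 SD, but this SD is between libraries, and trimming acts within each. Every share above 0 fell in its library. In Pdcd4 they went from 22%, 93.3% and 93.4% to 8.79%, 65.3% and 62.1%. In Bcl2 they went from 5.74%, 22.4% and 9.46% to 2.2%, 8.3% and 3.95%. A mean within 1 SD thus does not make the shares independent of the padding. Fewer peaks or libraries change the counts above by construction. No paired analysis was possible because all 3 samples belong to 1 group. Depth is unknown, so absence of a peak sets no limit on binding.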
